A study of Arabidopsis thaliana with 18 samples.

Results

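The genes described here are 49 UDP-glycosyltransferases (UGTs) of Arabidopsis thaliana, out of 16548 genes named on the array. Members were all genes whose symbol begins with UGT and a digit in the platform's probe table or in a RefSeq gene table, read only from features paired with exactly 1 gene. UGT76C1 and UGT76C2, which conjugate cytokinins, were left out. The 49 genes were covered by 54 of 16722 such features and fell into 12 numbered families. For the 5 genes with 2 features, the one with the higher mean over all arrays stood for the gene.

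UGTs transfer a sugar from a UDP-sugar onto small acceptor molecules such as hormones, flavonols, lignin precursors, defence compounds and foreign chemicals. The conjugate is usually more soluble, often inactive, and can be moved into the vacuole. A UGT name gives the family number, the subfamily letter and the gene number, so UGT73B5 and UGT73B4 belong to the same subfamily. Many members are known from seedlings as genes that respond to stress, pathogens or xenobiotics.

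Seedlings, 10 days old, of a crf6 mutant, of a line named CRF6oe and of the wild type Col-0 (WT) were lifted from plates onto 3 mM MES buffer for 1 h. They then received 20 mM hydrogen peroxide (H2O2), an oxidant, or 2 µM benzyl adenine (BA), a cytokinin, for 6 h, or stayed untreated. All of the solutions, those of untreated seedlings too, contained DMSO at 0.2%. The 3 genotypes and 3 conditions made 9 groups of 2 arrays, 18 in all, and the series was made to find target genes of CRF6, CYTOKININ RESPONSE FACTOR 6, an AP2/ERF transcription factor. The labels give neither the allele of crf6 nor the promoter of CRF6oe, and no treatment time for untreated samples. Nothing in them says that the paired arrays of a group hold separate cultures. The p-values set group differences against the spread between paired arrays. That spread may be technical only, and p-values would then leave out the spread between cultures and be too small.

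Values are on the log2 scale, and a change of 1 is a doubling. Replicate arrays correlated over genes at 0.977 to 0.991. The 6 CRF6oe arrays stood apart, at 0.917 to 0.947 against the other 12, which correlated at 0.948 to 0.991 among themselves. The labels name no batch, so an effect of genotype and one of array handling cannot be told apart, for CRF6oe or for crf6. No named feature was paired with CRF6, so the genotypes were not checked on the targeted gene. Of 12 root markers 2 were measured (EXPA7 and EXPA18), and of 8 photosynthetic shoot markers none. In RNA from whole seedlings, fewer cells of a type and less RNA per cell cannot be told apart.

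Genes with an adjusted p under 0.05 were called (limma, two-sided, Benjamini-Hochberg over all 16722 features). Of the 49 members, 23 were called in at least 1 of 12 contrasts and 26 in none. The share of all genes called in at least 1 contrast was not counted, but CRF6oe against WT alone called 46.4%. The count of 23 therefore does not set the UGT genes apart from other genes. A treatment called 11 members, all of them with H2O2. Of all genes, H2O2 called 1.95% in crf6, 2.62% in CRF6oe and 2.87% in WT. The mean level of 11 members lay among the dimmest 30% of features (below 3.45), and no detection calls were used here.

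Most of the UGT genes that rose with H2O2 belonged to the UGT73 family. In crf6, 7 of 49 members changed with H2O2 (14.3%, against 1.95% of all genes), 5 up (0.864% of all genes) and 2 down (1.09%). In CRF6oe, 5 of 49 changed (10.2%, against 2.62%), 3 up (1.41% of all genes) and 2 down (1.21%). In WT, 8 of 49 changed (16.3%, against 2.87%), 6 up (1.50% of all genes) and 2 down (1.37%). Of the 10 UGT73 genes among the members, 4 rose in crf6, 2 in CRF6oe and 5 in WT, and none fell. The median UGT73 change was 0.87 in crf6, 0.31 in CRF6oe and 1.25 in WT. Over all 49 members the medians were 0.04, -0.09 and 0.03 for crf6, CRF6oe and WT, and over all genes 0.01, 0.05 and -0.02.

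UGT73B5, needed with UGT73B3 for full resistance to Pseudomonas syringae, changed most in WT. Its values were 8.33 and 8.30 with H2O2, 5.39 and 5.64 with BA and 5.62 and 5.45 untreated in crf6. CRF6oe arrays had 8.47 and 8.47 with H2O2, 6.46 and 6.72 with BA and 7.34 and 6.09 untreated. In WT they were 9.69 and 8.65 with H2O2, 5.40 and 5.31 with BA and 5.78 and 5.85 untreated. The H2O2 arrays lay above the untreated and BA arrays of the same genotype without overlap, and the untreated CRF6oe arrays lay above those of crf6 and WT. UGT73B5 rose 6.89-fold in crf6 (2.78 ± 0.34 SE, adjusted p = 0.000476, limma), 3.39-fold in CRF6oe (1.76 ± 0.34, adjusted p = 0.015) and 10.3-fold in WT (3.36 ± 0.34, adjusted p = 5.31e-05). The CRF6oe change was 1.14 without CRF6oe untreated replicate 2 (adjusted p = 0.103) and 1.76 without CRF6oe H2O2 replicate 1 (adjusted p = 0.0895), and was called in neither case.

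UGT73B4, the gene next to UGT73B5 on chromosome 2, encodes an enzyme that conjugates reduction products of the explosive TNT. In crf6 it stood at 7.78 and 7.86 with H2O2, 5.70 and 4.92 with BA and 5.38 and 5.06 untreated. The CRF6oe values were 6.64 and 6.47 with H2O2, 5.74 and 5.74 with BA and 5.52 and 4.65 untreated. In WT, H2O2 arrays had 8.66 and 8.07, BA arrays 5.74 and 6.23 and untreated arrays 5.21 and 6.00. All H2O2 arrays of crf6 and WT were above every CRF6oe array. UGT73B4 rose by 2.60 ± 0.34 in crf6 (adjusted p = 0.000679), by 1.47 ± 0.34 in CRF6oe (adjusted p = 0.0338) and by 2.76 ± 0.34 in WT (adjusted p = 0.000267). When 1 of the 4 arrays compared was left out in turn, the CRF6oe call was lost in 3 of 4 cases.

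UGT73B2, which glucosylates flavonoids in vitro, had 6.84 and 6.71 with H2O2, 4.15 and 4.05 with BA and 3.99 and 4.57 untreated in crf6. CRF6oe arrays had 5.27 and 6.06 with H2O2, 5.19 and 4.84 with BA and 5.06 and 4.66 untreated. WT arrays had 7.86 and 7.14 with H2O2, 4.34 and 3.81 with BA and 4.77 and 4.53 untreated. With H2O2 the CRF6oe arrays were the lowest of the 3 genotypes. UGT73B2 rose by 2.50 ± 0.30 in crf6 (adjusted p = 0.000476) and by 2.84 ± 0.30 in WT (adjusted p = 9.31e-05). In CRF6oe its change was 0.81 ± 0.30 and was not called (adjusted p = 0.164).

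UGT73B3, the neighbour of UGT73B2 on chromosome 4, had 4.80 and 4.39 with H2O2, 3.23 and 3.18 with BA and 3.31 and 3.01 untreated in crf6. CRF6oe arrays had 3.91 and 3.86 with H2O2, 3.35 and 4.54 with BA and 3.85 and 3.32 untreated. In WT it had 5.79 and 5.13 with H2O2, 3.173 and 2.92 with BA and 2.81 and 2.76 untreated. The 3 conditions ran together in CRF6oe, where 1 BA array was the highest, while H2O2 arrays stood clear of the rest in the other genotypes. UGT73B3 rose by 1.44 ± 0.32 in crf6 (adjusted p = 0.0329) and by 2.67 ± 0.32 in WT (adjusted p = 0.000266), and its change in CRF6oe was 0.30 ± 0.32 (adjusted p = 0.665).

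UGT73C1, whose enzyme conjugates TNT products and forms cytokinin O-glucosides in vitro, was called with H2O2 only in WT. It had 5.25 and 4.71 with H2O2, 3.96 and 4.22 with BA and 4.72 and 3.85 untreated in crf6. The CRF6oe arrays had 4.32 and 3.64 with H2O2, 3.66 and 4.17 with BA and 3.85 and 4.04 untreated. WT arrays had 6.15 and 5.47 with H2O2, 3.35 and 4.44 with BA and 4.22 and 4.31 untreated. The H2O2 and untreated arrays overlapped in crf6 and CRF6oe. The change was 0.70 ± 0.37 in crf6 (adjusted p = 0.65), 0.04 ± 0.37 in CRF6oe (adjusted p = 0.971) and 1.54 ± 0.37 in WT (adjusted p = 0.0383). The difference in response from WT was not called for crf6 (-0.85 ± 0.53, adjusted p = 1) or CRF6oe (-1.51 ± 0.53, adjusted p = 0.238).

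**Figure D1:**
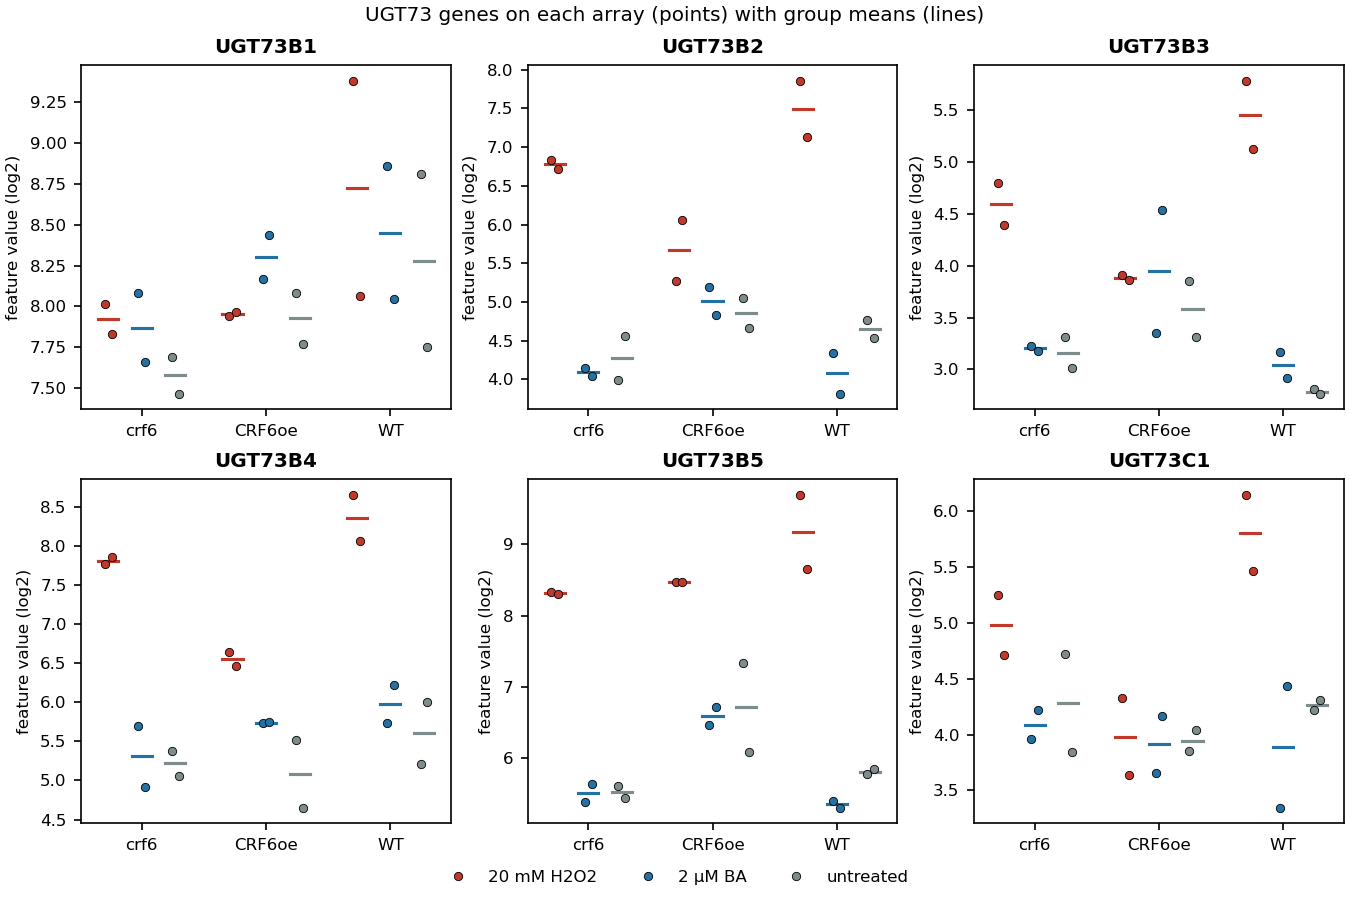
Log2 feature values of 6 UGT73 genes on each of the 18 arrays (points, 2 per group) with the group mean (line), by genotype on the x axis and treatment by colour. UGT73B2 stands high with H2O2 in crf6 and WT, and UGT73B4 and UGT73B5 do in every genotype, with their smallest rise in CRF6oe. UGT73B3 and UGT73C1 show their highest values on WT arrays with H2O2, and UGT73B1 shows no called change.

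The other UGT73 genes were not called in any contrast. UGT73B1, adjacent to UGT73B2, had 8.02 and 7.83 with H2O2 and 7.69 and 7.46 untreated in crf6, 7.94 and 7.96 against 8.08 and 7.77 in CRF6oe, and 9.38 and 8.07 against 8.81 and 7.75 in WT. Its H2O2 change was 0.35 ± 0.39 in crf6, 0.03 ± 0.39 in CRF6oe and 0.44 ± 0.39 in WT. In WT with H2O2, replicate 1 was above replicate 2 for UGT73B1 and for all 5 UGT73 genes called there. UGT73C7 had an H2O2 change of 1.04 ± 0.29 in crf6 (adjusted p = 0.106), 0.52 ± 0.29 in CRF6oe (adjusted p = 0.367) and 0.96 ± 0.29 in WT (adjusted p = 0.114). Its H2O2 arrays were above its untreated arrays in each genotype. UGT73C2 had group means between 2.71 and 3.98, and UGT73D1 between 4.87 and 5.58.

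UGT73C6, an enzyme known to conjugate flavonols and brassinosteroids, had 2 features that differed. Group means of the brighter feature lay between 4.69 and 5.68, and its H2O2 change in WT was -0.01 ± 0.41. The dimmer feature had 2.85 and 2.93 with H2O2 and 1.73 and 1.97 untreated in crf6, and 2.34 and 2.41 against 1.88 and 2.54 in CRF6oe. In WT it had 3.82 and 2.89 with H2O2 and 1.84 and 1.94 untreated. It rose by 1.46 ± 0.28 in WT (adjusted p = 0.00823), while 1.04 ± 0.28 in crf6 (adjusted p = 0.0856) and 0.17 ± 0.28 in CRF6oe (adjusted p = 0.793) were not called. Probe sequences were not used here, so signal shared between near-identical UGT73C or UGT73B genes was not tested.

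Outside UGT73, H2O2 raised UGT87A2, a gene linked to flowering time and abiotic stress. It had 10.18 and 10.15 with H2O2, 8.37 and 8.12 with BA and 8.06 and 8.77 untreated in crf6. The CRF6oe arrays had 9.41 and 9.92 with H2O2, 9.87 and 9.79 with BA and 10.31 and 10.21 untreated. In WT it had 10.82 and 10.38 with H2O2, 8.63 and 8.36 with BA and 9.59 and 8.71 untreated. The untreated CRF6oe arrays were as high as the H2O2 arrays of crf6, and in CRF6oe the H2O2 arrays were lower than the untreated ones. UGT87A2 rose by 1.75 ± 0.29 in crf6 (adjusted p = 0.00448) and by 1.45 ± 0.29 in WT (adjusted p = 0.0116), and its change in CRF6oe was -0.60 ± 0.29 (adjusted p = 0.289).

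UGT72E genes glucosylate monolignols, the building units of lignin. UGT72E2, which acts on coniferyl and sinapyl alcohol, had 3.54 and 4.15 with H2O2, 6.13 and 6.67 with BA and 6.58 and 6.60 untreated in crf6. In CRF6oe it had 3.51 and 3.74 with H2O2, 3.71 and 3.43 with BA and 3.68 and 3.92 untreated. In WT it had 3.06 and 3.02 with H2O2, 4.91 and 5.05 with BA and 4.27 and 5.64 untreated. CRF6oe arrays were low in every condition, near the H2O2 arrays of crf6 and WT. UGT72E2 fell by 2.75 ± 0.34 in crf6 (adjusted p = 0.000478) and by 1.92 ± 0.34 in WT (adjusted p = 0.00451), while the CRF6oe change of -0.17 ± 0.34 was not called (adjusted p = 0.823). Without WT untreated replicate 2 the WT change was -1.24 (adjusted p = 0.0533).

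UGT72E1, another monolignol enzyme of this subfamily, had 6.90 and 7.32 with H2O2, 7.75 and 7.31 with BA and 7.97 and 8.43 untreated in crf6. In CRF6oe it had 7.26 and 7.28 with H2O2, 7.54 and 8.21 with BA and 8.54 and 8.67 untreated, and in WT 7.62 and 7.35, 7.92 and 7.47, and 8.65 and 8.17 for the same conditions. Both H2O2 arrays were below both untreated arrays in each genotype. It fell by 1.34 ± 0.27 in CRF6oe (adjusted p = 0.0183), and the changes of -1.09 ± 0.27 in crf6 (adjusted p = 0.0545) and -0.92 ± 0.27 in WT (adjusted p = 0.094) were not called. The CRF6oe call was lost when any 1 of the 4 arrays compared was left out, with changes of -1.40 to -1.18 over all runs. The response did not differ by a called amount between CRF6oe and WT (-0.41 ± 0.38, adjusted p = 0.703). UGT72E3, among the dimmest features of the array, had group means between 1.89 and 2.46.

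UGT84A enzymes form glucose esters of sinapate and related acids. UGT84A3 had 5.13 and 4.82 with H2O2, 4.50 and 4.22 with BA and 4.40 and 4.44 untreated in crf6. In CRF6oe it had 4.81 and 5.78 with H2O2, 8.16 and 5.46 with BA and 7.65 and 8.84 untreated. In WT it had 5.98 and 5.91 with H2O2, 4.48 and 3.84 with BA and 5.56 and 4.61 untreated. The untreated CRF6oe arrays and 1 of the 2 BA arrays of CRF6oe stood far above the rest. UGT84A3 fell 7.75-fold in CRF6oe (-2.95 ± 0.63, adjusted p = 0.0255), against changes of 0.55 ± 0.63 in crf6 (adjusted p = 0.94) and 0.86 ± 0.63 in WT (adjusted p = 0.704). The CRF6oe call was lost in 3 of 4 omissions of 1 array, with changes of -3.55 to -2.36 over all runs. The difference of the CRF6oe response from that of WT was -3.81 ± 0.89 and was not called (adjusted p = 0.0818).

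UGT84A4 lies beside UGT84A3 on chromosome 4 and was dim. It had 2.63 and 2.52 with H2O2 and 3.39 and 3.82 untreated in crf6, 2.31 and 2.51 against 2.14 and 2.42 in CRF6oe, and 2.21 and 2.45 against 3.27 and 3.45 in WT. It fell by 1.03 ± 0.20 in crf6 (adjusted p = 0.0116) and by 1.03 ± 0.20 in WT (adjusted p = 0.00897), and the CRF6oe change was 0.13 ± 0.20 (adjusted p = 0.772). The untreated level in CRF6oe was already as low as the H2O2 level of the other genotypes. UGT71C1, also dim, rose in CRF6oe by 0.85 ± 0.19 (adjusted p = 0.0301), with changes of -0.37 ± 0.19 in crf6 (adjusted p = 0.612) and -0.33 ± 0.19 in WT (adjusted p = 0.554).

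**Figure D2:**
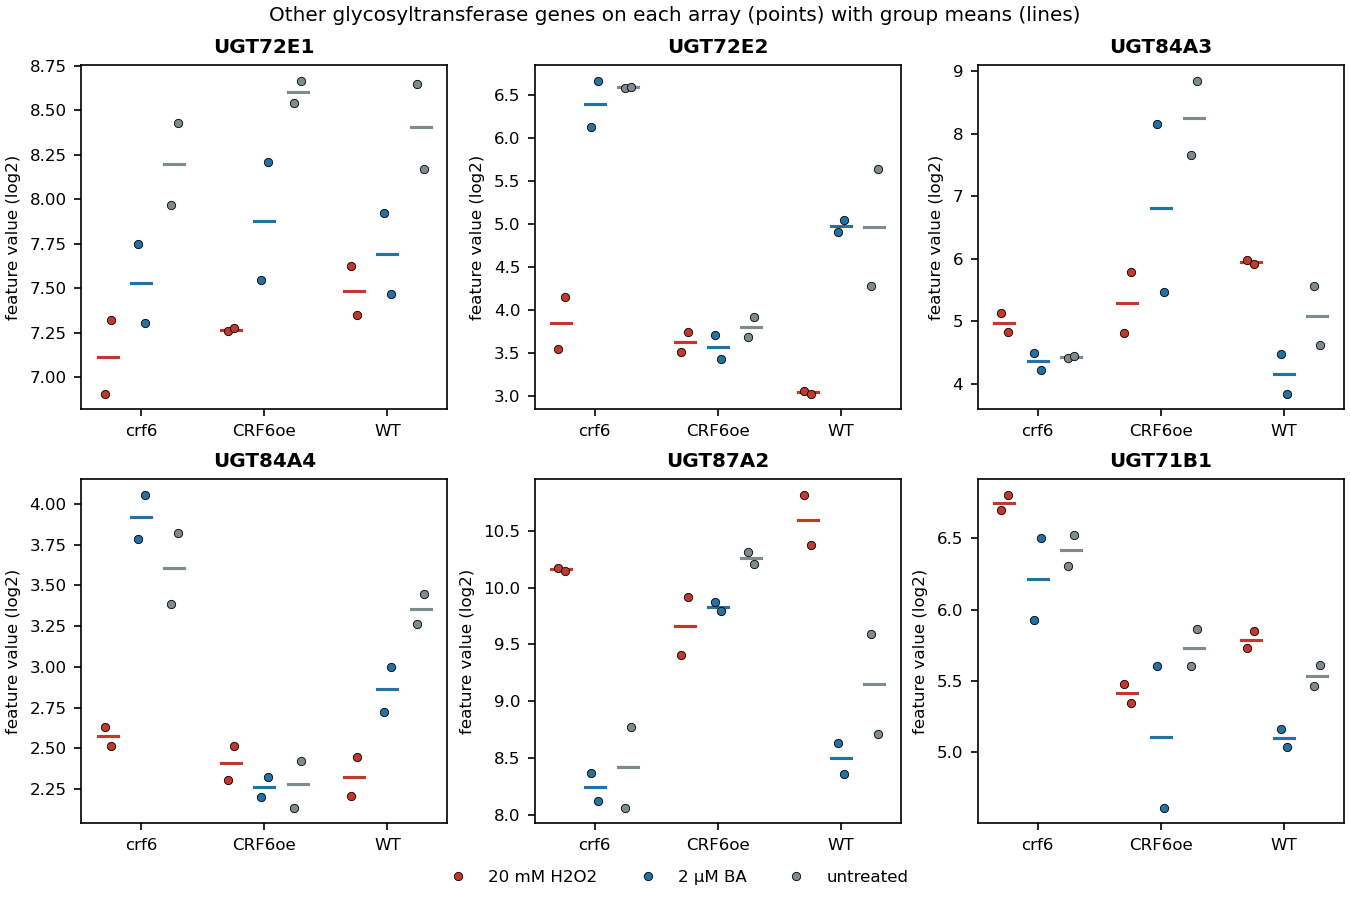
Log2 feature values of UGT72E1, UGT72E2, UGT84A3, UGT84A4, UGT87A2 and UGT71B1 on each array (points) with group means (lines), by genotype and treatment. UGT72E2 and UGT84A4 are low with H2O2 in crf6 and WT and low in every condition in CRF6oe, and UGT84A3 is highest on untreated CRF6oe arrays.

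Members with an H2O2 change over 1 that was not called were few. UGT71B6, which glucosylates abscisic acid, had 1.45 ± 0.55 in WT (adjusted p = 0.254), where 1 array at 6.50 stood apart from the other at 4.58. UGT74B1, the S-glucosyltransferase of glucosinolate synthesis, had -1.03 ± 0.31 in CRF6oe (adjusted p = 0.0868), against 0.20 ± 0.31 in crf6 and 0.24 ± 0.31 in WT. UGT76B1, which conjugates isoleucic acid, salicylic acid and N-hydroxypipecolic acid, had -1.03 ± 0.29 in CRF6oe (adjusted p = 0.0723), -0.33 ± 0.29 in crf6 and -0.67 ± 0.29 in WT.

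**Figure D3:**
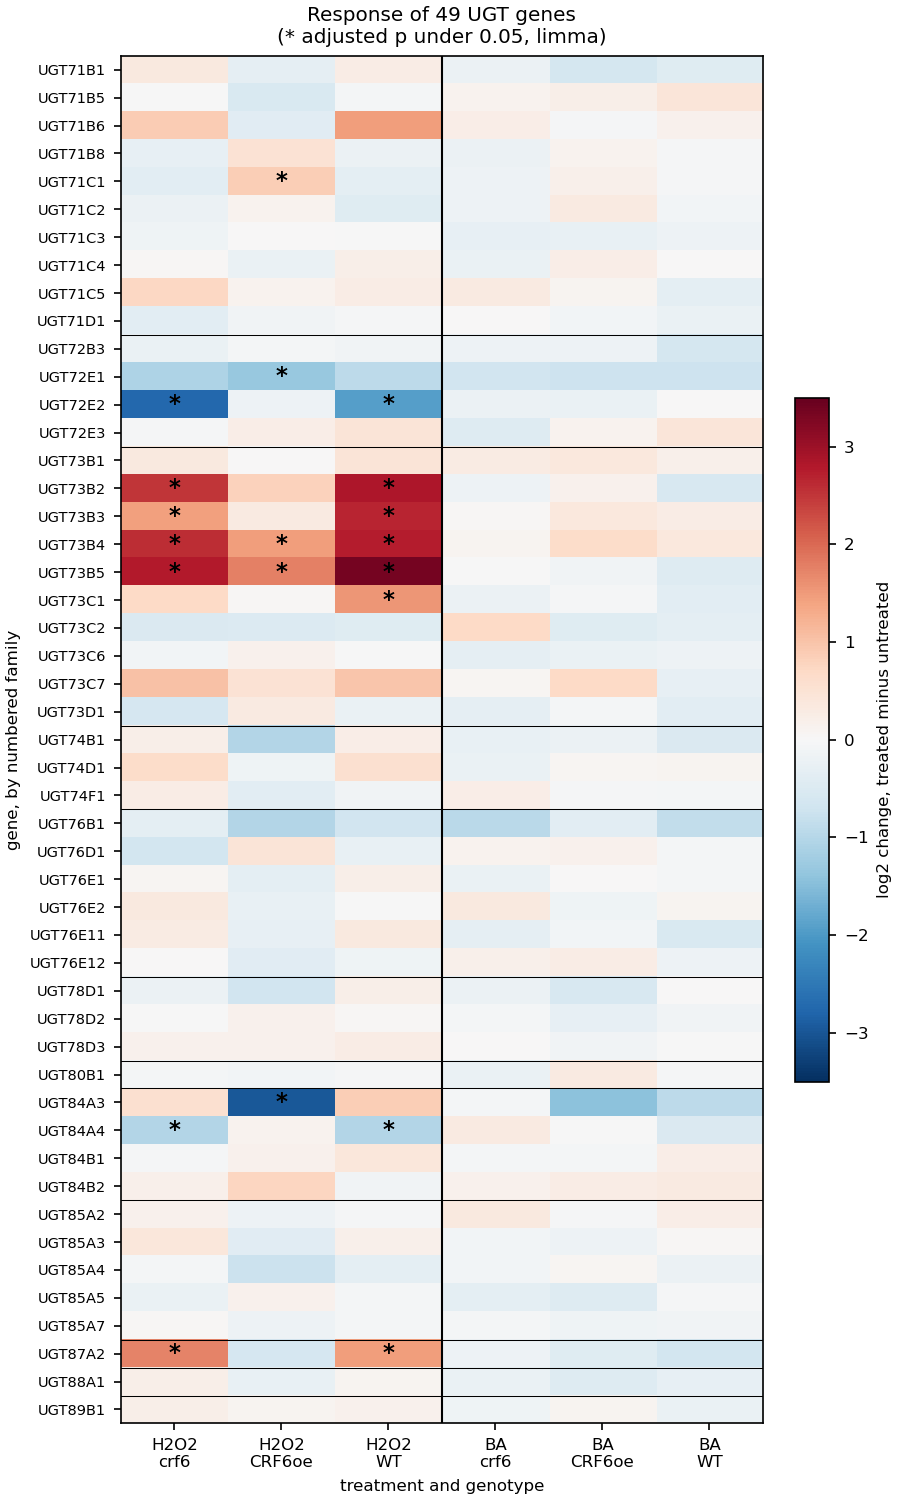
Log2 change of all 49 UGT genes (rows, by numbered family) with H2O2 (left) and BA (right) relative to untreated arrays, with crf6, CRF6oe and WT as columns, on a colour scale from blue (lower) to red (higher). Asterisks mark adjusted p under 0.05. With H2O2 they sit on 7 genes in crf6, 5 in CRF6oe and 8 in WT, of which 4, 2 and 4 are UGT73B genes. No cell in the BA columns has one.

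The mean of the root markers EXPA7 and EXPA18 was lower with H2O2 in crf6 and WT, and with BA in all 3 genotypes, than on the untreated arrays, with no call for either gene. It was 3.66 and 3.76 with H2O2, 3.66 and 4.48 with BA and 4.52 and 4.55 untreated in crf6. In CRF6oe it was 4.11 and 4.35 with H2O2, 3.91 and 3.97 with BA and 4.34 and 4.88 untreated, and in WT 3.58 and 3.58, 3.54 and 3.84, and 4.41 and 4.41 for the same conditions. The median change of both genes was -0.82 with H2O2 and -0.46 with BA in crf6, -0.38 and -0.67 in CRF6oe, and -0.83 and -0.72 in WT. For EXPA7 the H2O2 change was -0.86 ± 0.24 in crf6 (adjusted p = 0.107), -0.42 ± 0.24 in CRF6oe (adjusted p = 0.383) and -0.75 ± 0.24 in WT (adjusted p = 0.148). The part of tissue makeup in the UGT changes was not tested.

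Single arrays decided part of these counts. In WT, 4 members were called without untreated replicate 2 and 5 without H2O2 replicate 1. UGT73B2, UGT73B3, UGT73B4 and UGT73B5 kept their WT calls under every alternative and every omission of 1 array that was run, and UGT73B2, UGT73B4, UGT73B5 and UGT72E2 did so in crf6. UGT73B3 lost its crf6 call without any one of the 4 arrays compared (adjusted p up to 0.30 over all runs), and UGT73C1 lost its WT call in 3 of 4 such omissions (up to 0.287). Without WT untreated replicate 2, UGT72E2 (adjusted p = 0.0533), UGT84A4 (0.114) and UGT87A2 (0.198) were lost in WT too, the last 2 also without WT H2O2 replicate 1. In crf6, UGT84A4 was lost in 3 of 4 omissions (up to 0.197) and UGT87A2 without untreated replicate 1 (0.0774). In CRF6oe the call of UGT72E1 was lost in all 4 omissions, and those of UGT71C1, UGT73B4 and UGT84A3 in 3 of 4. UGT73B5 lost its call in 2 of 4, and all 5 calls were lost without untreated replicate 2.

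**Figure D4:**
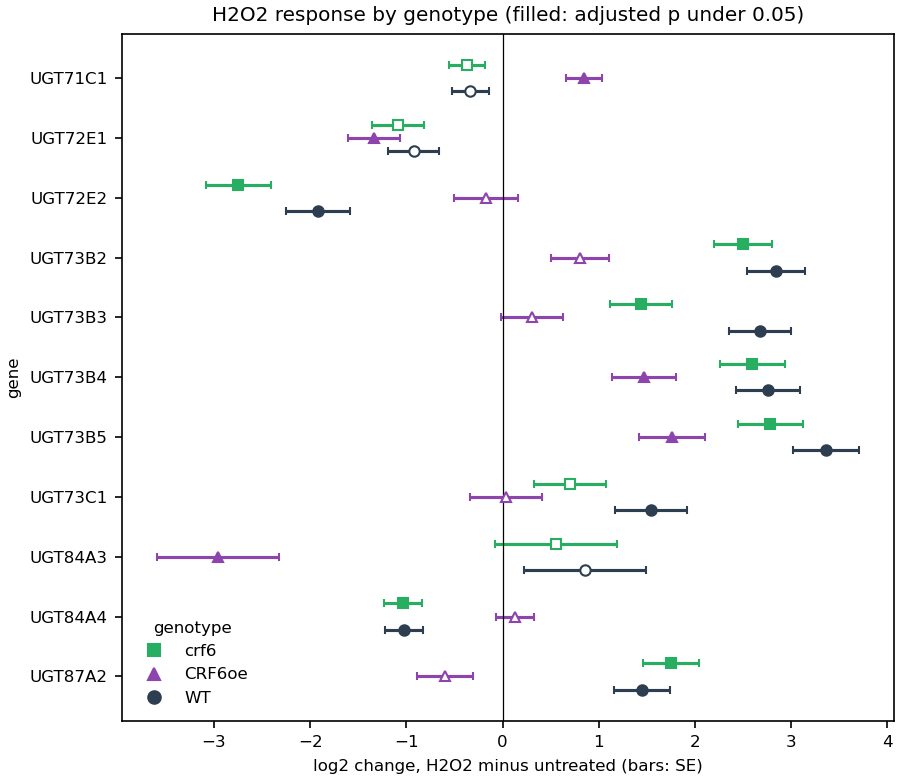
Log2 change with H2O2 relative to untreated arrays for the 11 UGT genes called in any genotype, with crf6 (squares), CRF6oe (triangles) and WT (circles); bars are SE and filled symbols have an adjusted p under 0.05. For UGT73B2, UGT73B3 and UGT87A2 the CRF6oe triangles lie well left of the WT circles.

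Whether the H2O2 response itself depended on genotype was tested as an interaction. Between crf6 and WT no member differed, and 0% of all genes did. An unadjusted p under 0.05 was found for 480 of all 16548 genes and for 1 of the 49 members. That was UGT73B3, at -1.23 ± 0.46 (adjusted p = 1). Between CRF6oe and WT, 15 of 49 members had an unadjusted p under 0.05, as had 2240 of all 16548 genes. By adjusted p, 3 of 49 members differed (6.12%, against 0.574% of all genes), all with a lower response in CRF6oe (0.242% of all genes).

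These were UGT73B3 (-2.37 ± 0.46, adjusted p = 0.0397), UGT87A2 (-2.05 ± 0.41, adjusted p = 0.0428) and UGT73B2 (-2.04 ± 0.43, adjusted p = 0.0483). For UGT87A2 the response was -0.60 in CRF6oe and 1.45 in WT. For UGT87A2 and UGT73B3, both untreated CRF6oe arrays were above both untreated WT arrays. For UGT73B2 the untreated arrays overlapped, at 5.06 and 4.66 in CRF6oe and 4.77 and 4.53 in WT. UGT73B5 (-1.60 ± 0.48, adjusted p = 0.169) and UGT73B4 (-1.29 ± 0.47, adjusted p = 0.259) were not called. Neither were UGT72E2 (1.75 ± 0.47, adjusted p = 0.129), UGT71C1 (1.18 ± 0.27, adjusted p = 0.067) and UGT84A4 (1.16 ± 0.28, adjusted p = 0.0891). The 3 calls were lost in 5 (UGT73B2), 3 (UGT73B3) and 3 (UGT87A2) of 7 alternatives, with none left when only the arrays compared were fitted. None was left without CRF6oe H2O2 replicate 1, CRF6oe untreated replicate 1, WT H2O2 replicate 1 or WT untreated replicate 2.

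BA called no UGT gene in any genotype by limma, where it called 0.236% of all genes in crf6, 0.212% in CRF6oe and 0.163% in WT. Without adjustment, 2 members in crf6, 5 in CRF6oe and 5 in WT had a p under 0.05. Of all 16548 genes, 1049 did in crf6, 1269 in CRF6oe and 1195 in WT. The BA and H2O2 comparisons of a genotype share their untreated arrays. UGT76B1 had the lowest adjusted p in crf6 (-0.94 ± 0.29, adjusted p = 0.374) and in WT (-0.86 ± 0.29, adjusted p = 0.382), with -0.37 ± 0.29 in CRF6oe (adjusted p = 0.843). UGT72E1 arrays with BA were below its untreated arrays in every genotype, by -0.67 ± 0.27 in crf6, -0.73 ± 0.27 in CRF6oe and -0.71 ± 0.27 in WT (adjusted p = 0.634, 0.473 and 0.489). In CRF6oe the lowest adjusted p was that of UGT78D1, a flavonol rhamnosyltransferase (-0.57 ± 0.20, adjusted p = 0.429). UGT84A3 had -1.44 ± 0.63 there (adjusted p = 0.612), and without BA replicate 1 of CRF6oe, the array at 8.16, it was the 1 member called. No BA response differed between crf6 or CRF6oe and WT for any member, as for 0% of all genes. An unadjusted p under 0.05 was found for 3 members with crf6 and 1 with CRF6oe. Of all 16548 genes it was found for 283 and 760.

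The crf6 mutant differed from WT, as the mean over 3 conditions, in 2 of 49 members (4.08%, against 0.574% of all genes), both higher in crf6, as were 0.290% of all genes. UGT72E2 was 2.44-fold higher (1.29 ± 0.19, adjusted p = 0.014). In each condition its 2 crf6 arrays were above its 2 WT arrays. UGT71B1 had 6.70 and 6.80 with H2O2, 5.93 and 6.50 with BA and 6.31 and 6.52 untreated in crf6. In CRF6oe it had 5.48 and 5.35, 5.60 and 4.61, and 5.61 and 5.86 for the same conditions, and in WT 5.73 and 5.85, 5.16 and 5.04, and 5.46 and 5.61. All 6 crf6 arrays were above all 6 WT arrays, and UGT71B1 was 1.98-fold higher in crf6 (0.98 ± 0.15, adjusted p = 0.0159). UGT84A4 was at 0.52 ± 0.11 and was not called (adjusted p = 0.059). Both calls were lost without WT BA replicate 1 and without crf6 BA replicate 2. UGT71B1 alone was lost without WT untreated replicate 1, crf6 untreated replicate 2 or crf6 H2O2 replicate 2. Without WT H2O2 replicate 2 there were 4 calls, UGT84A4 and UGT73B1 in addition.

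CRF6oe differed from WT, over the mean of 3 conditions, in 18 of 49 members (36.7%, against 46.4% of all genes), so the count does not set the UGT genes apart from other genes. Of these, 7 were higher in CRF6oe and 11 lower. Over all genes 3844 were higher (23.2%) and 3827 lower (23.1%), a split of 2897 and 4440 once arrays were centred on their medians. The WT arrays are also those of the crf6 comparison.

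The members higher in CRF6oe were led by UGT84A3 (1.72 ± 0.36, adjusted p = 0.00126), with the untreated and BA arrays described above. With H2O2 its group mean was lower in CRF6oe than in WT, at 5.29 and 5.95. UGT71B5 had 5.67 and 5.58 with H2O2, 5.99 and 6.75 with BA and 6.24 and 6.09 untreated in CRF6oe. Its crf6 arrays had 5.07 and 4.61, 4.91 and 5.06, and 5.17 and 4.54, and its WT arrays 4.57 and 4.96, 4.90 and 5.61, and 4.85 and 4.80. It was higher in CRF6oe by 1.11 ± 0.17 (adjusted p = 6.93e-05), with 1 WT array within the CRF6oe range. UGT76B1 had 6.97 and 6.90 with H2O2, 7.95 and 7.26 with BA and 7.80 and 8.14 untreated in CRF6oe. In crf6 it had 6.83 and 6.59, 6.27 and 5.93, and 7.07 and 7.01, and in WT 6.62 and 5.92, 5.99 and 6.17, and 7.30 and 6.57. Its CRF6oe arrays were above those of WT within each condition, by 1.07 ± 0.17 in the mean (adjusted p = 8.36e-05). UGT71C3, which conjugates methyl salicylate, was higher by 0.97 ± 0.13 (adjusted p = 3e-05) with no overlap of the arrays. UGT89B1 (0.82 ± 0.18, adjusted p = 0.00158), UGT87A2 (0.50 ± 0.17, adjusted p = 0.0224) and UGT71C1 (0.37 ± 0.11, adjusted p = 0.0122) were higher by less in the mean. With H2O2 the group mean of UGT87A2 was lower in CRF6oe than in WT, at 9.67 and 10.60. The untreated group mean of UGT71C1 was also lower in CRF6oe than in WT, with overlapping arrays. The UGT87A2 call was lost with quantile normalization and with arrays centred on their medians, and the UGT71C1 call with centring.

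The members lower in CRF6oe were led by UGT85A5. It had 5.11 and 5.84 with H2O2, 4.82 and 4.93 with BA and 4.70 and 5.96 untreated in CRF6oe. In crf6 it had 7.01 and 6.46, 6.70 and 6.57, and 7.18 and 6.75, and in WT 6.40 and 6.80, 6.93 and 6.31, and 6.58 and 6.75. All CRF6oe arrays were below all WT and crf6 arrays, and UGT85A5 was 2.64-fold lower in CRF6oe than in WT (-1.40 ± 0.21, adjusted p = 5.81e-05). UGT88A1 (-0.93 ± 0.14, adjusted p = 6.22e-05) and UGT80B1, the sterol glucosyltransferase TT15 (-0.73 ± 0.14, adjusted p = 0.000535), also had no overlap between CRF6oe and WT arrays. Against crf6, UGT88A1 did overlap, with CRF6oe untreated replicate 2 at 6.93 and crf6 BA replicate 2 at 6.75. From UGT73 came UGT73B4 (-0.86 ± 0.19, adjusted p = 0.00205) and UGT73C1 (-0.71 ± 0.22, adjusted p = 0.0145), while UGT73B5 was at 0.48 ± 0.20 and was not called (adjusted p = 0.0572). For UGT73B4 and UGT73C1 the gap was widest with H2O2. UGT73B4 group means in CRF6oe and WT were 6.56 and 8.36 with H2O2, 5.74 and 5.98 with BA, 5.09 and 5.60 untreated. Those of UGT73C1 were 3.98 and 5.81 with H2O2, 3.91 and 3.89 with BA, 3.94 and 4.26 untreated. UGT72E2 (-0.66 ± 0.19, adjusted p = 0.0114) and UGT72B3 (-0.51 ± 0.15, adjusted p = 0.0118) were lower, as were UGT84A4 (-0.53 ± 0.11, adjusted p = 0.00138) and the flavonol glucosyltransferase UGT78D2 (-0.46 ± 0.13, adjusted p = 0.0114). With H2O2, UGT72E2 and UGT84A4 were not lower in CRF6oe than in WT (group means 3.62 and 3.04, and 2.41 and 2.33). The UGT72E2 difference was -0.43 without WT untreated replicate 2 (adjusted p = 0.0251).

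The last of the lower members, UGT85A4 (-0.54 ± 0.18, adjusted p = 0.0218) and UGT76E12 (-0.36 ± 0.13, adjusted p = 0.0389), had a further feature that was higher in CRF6oe. That feature changed by 0.30 ± 0.10 for UGT85A4 (adjusted p = 0.0209) and by 0.86 ± 0.26 for UGT76E12 (adjusted p = 0.0128), so neither gene has a settled direction. UGT71B6 had 0.21 ± 0.32 on its brighter feature (adjusted p = 0.626) and 0.50 ± 0.18 on the other (adjusted p = 0.0363). UGT74D1, which glucosylates auxin, had 0.38 ± 0.16 (adjusted p = 0.0671) and -0.28 ± 0.17 (adjusted p = 0.193). Single arrays also decided the calls of UGT76E12 (lost in 10 of 12 omissions), UGT85A4 (5), UGT87A2 (4) and UGT73C1 (1).

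**Figure D5:**
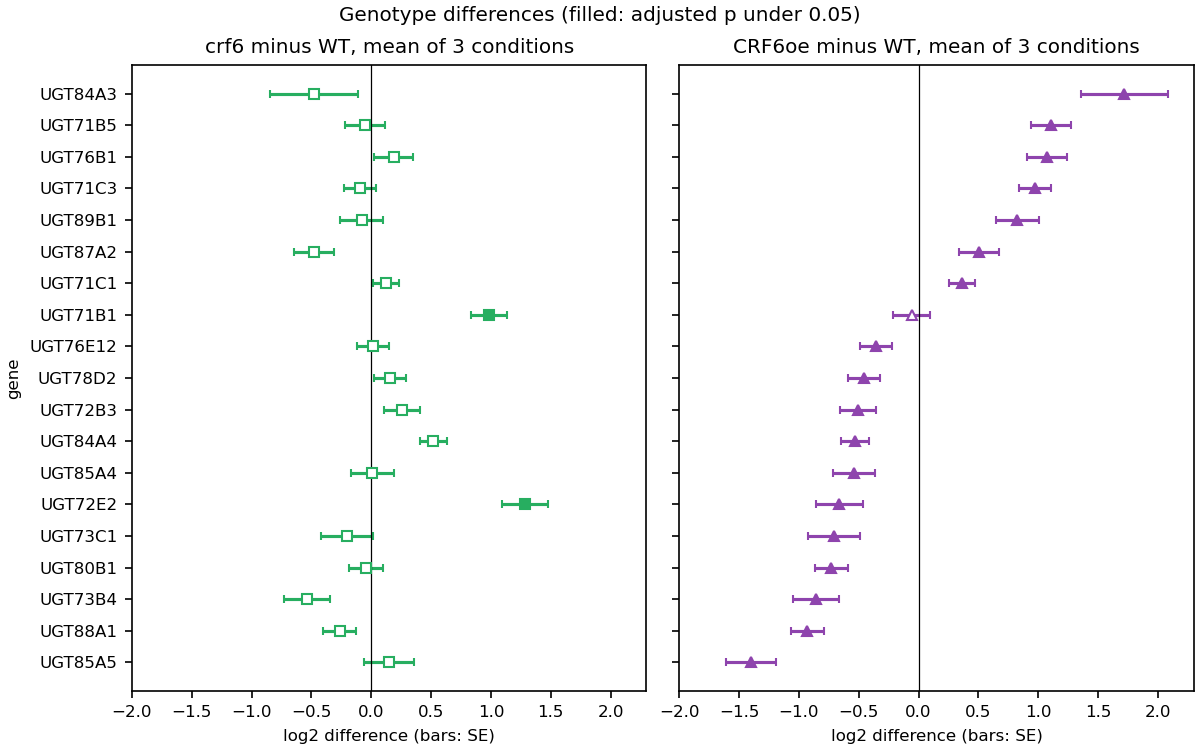
Log2 difference of crf6 (left, squares) and of CRF6oe (right, triangles) from WT, as the mean over 3 conditions, for the UGT genes called in either comparison; bars are SE and filled symbols have an adjusted p under 0.05. UGT72E2 and UGT71B1 are the filled squares, and the triangles run from 1.72 for UGT84A3 to -1.40 for UGT85A5.

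Many UGT genes lie in tandem: 31 of the 49 had another member as the next or next but one protein-coding gene in the TAIR10.1 annotation, in 13 clusters. Neighbours did not always move together. On chromosome 4 UGT73B3, UGT73B2 and UGT73B1 lie in a row, and with H2O2 in WT the first 2 rose by 2.67 and 2.84 while UGT73B1 was at 0.44 and not called. As the mean over 3 conditions, UGT84A3 was higher and UGT84A4 lower in CRF6oe than in WT. In the chromosome 1 cluster of UGT85A7, UGT85A2, UGT85A5 and UGT85A3, only UGT85A5 was called, against -0.24 ± 0.17 for UGT85A7, 0.11 ± 0.11 for UGT85A2 and -0.14 ± 0.16 for UGT85A3. In that of UGT71C5, UGT71C4 and UGT71C3, the call for UGT71C3 stood beside 0.27 ± 0.15 for UGT71C5, an abscisic acid glucosyltransferase, and -0.21 ± 0.12 for UGT71C4. Differences between neighbours were not tested.

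The remaining members were called in no contrast and are given by the lowest and highest of their 9 group means. UGT85A2 lay between 9.20 and 9.74. UGT71C4 ran between 7.42 and 8.01, and UGT74B1 between 6.32 and 7.67. UGT76E11 had 5.98 to 7.03, and UGT74D1 4.27 to 5.38. The median of a single array over all features was 4.63 to 4.98. UGT71C5 spanned 4.28 to 5.21, UGT85A3 4.11 to 4.63, UGT84B2 3.83 to 4.61 and UGT71B6 3.97 to 5.54. UGT73C7 spanned 3.57 to 5.07 with its highest mean in crf6 with H2O2.

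Several enzymes known for hormone and flavonol conjugation had low values. UGT74F1, which acts on salicylic acid, had group means of 3.48 to 3.86, and UGT76D1, which acts on dihydroxybenzoic acids, of 2.99 to 3.996. UGT71C2 had 3.40 to 4.02. The flavonol arabinosyltransferase UGT78D3 had 3.36 to 3.81, and the rhamnosyltransferase UGT78D1 1.92 to 2.64. UGT84B1, which acts on the auxin indole-3-acetic acid, had 1.79 to 2.18, and UGT76E1, which acts on hydroxyjasmonate, 1.96 to 2.31. Whether these features stood above background was not tested. UGT76E2 (1.77 to 2.40), UGT71B8 (2.88 to 3.598), UGT71D1 (3.12 to 3.597) and UGT85A7 (3.24 to 3.61) were further members among the dimmest 30% of features. The means of UGT74F1, UGT76D1, UGT71C2 and UGT78D3 over all arrays lay above that limit of 3.45.

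Of 36 listed loci of this enzyme family, 28 were measured, and 8 of these were not among the 49 members. One of these 8 rose with H2O2, AT1G05675, with 4.87 and 4.57 with H2O2 and 2.11 and 2.12 untreated in crf6, 4.27 and 6.21 against 3.66 and 3.21 in CRF6oe, and 7.22 and 5.77 against 3.31 and 2.26 in WT. Its H2O2 arrays were above its untreated arrays in each genotype. It rose by 2.60 ± 0.53 in crf6 (adjusted p = 0.0177) and by 3.71 ± 0.53 in WT (adjusted p = 0.00097), and 1.80 ± 0.53 in CRF6oe was not called (adjusted p = 0.0856). The median change of the 8 was 0.24 in crf6, -0.22 in CRF6oe and 0.41 in WT. In CRF6oe relative to WT, UGT73C4 was higher (1.24 ± 0.28, adjusted p = 0.00194), and UGT72B1 (-0.53 ± 0.16, adjusted p = 0.0126) and UGT89C1 (-0.40 ± 0.13, adjusted p = 0.0167) were lower.

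Of 23 listed xenobiotic detoxification genes 3 were measured, and with H2O2 1 rose in crf6, none in CRF6oe and 2 in WT. The glutathione S-transferase GSTU25 rose by 3.36 ± 0.48 in crf6 (adjusted p = 0.0014) and by 3.42 ± 0.48 in WT (adjusted p = 0.000852), with 1.13 ± 0.48 in CRF6oe (adjusted p = 0.22). The transporter gene DTX4 rose in WT by 1.43 ± 0.34 (adjusted p = 0.0349). Of 12 auxin conjugation and synthesis genes 5 were measured, and GH3.17, which joins auxin to amino acids, fell by 1.14 ± 0.19 in crf6 (adjusted p = 0.00405) and by 0.81 ± 0.19 in WT (adjusted p = 0.0288). No measured gene of the flavonoid (2 of 14), phenylpropanoid and sinapate (2 of 13), salicylic acid (1 of 16) or abscisic acid (1 of 10) lists was called with H2O2 in any genotype. Of the flavonoid genes, DFR, which reduces dihydroflavonols, was higher in crf6 than in WT (1.17 ± 0.18, adjusted p = 0.014). The glucosinolate, brassinosteroid and cytokinin lists had no measured gene.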

How the data were processed

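RNA of 10-day-old seedlings was labelled with biotin as cRNA, primed at the poly(A) tail, and hybridised to 18 one-colour arrays, per the labels' protocols. The authors' deposited table gives 1 value per feature and array. Its scale was taken as log2 from the deposited values, which ran from 0.792 to 14.3, and neither background correction nor normalization is given in the sources used here. Values were used without further scaling. Of 38408 features, 16722 were paired with exactly 1 gene in the platform's probe table, 759 with several (2 of them with a UGT gene, unnamed here) and 20927 were not listed. Symbols came from that table and a RefSeq table for TAIR10.1 (16574 features matched). No genome build is named for the array, so no coordinates are given, and sequences of probes, promoters and proteins were not used here.

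A linear model with 9 group means was fitted to all 18 arrays with limma 3.58.1 in R 4.3.3 (9 residual and 5.63 prior degrees of freedom), and tested on simulated data. The 12 contrasts were two-sided, with Benjamini-Hochberg adjustment over 16722 features, and genes were counted by their brightest feature (16548 genes). Errors of changes are standard errors. The number of arrays limits the precision. The members, lists and tests were chosen with earlier results of these data known. Every member called in any contrast is named, and every array is given for the 12 with the largest called change. Members not called with a treatment change over 1 are named as such, and the others appear with their range of group means. Values of UGT73B1, UGT84A4, UGT71B1 and the dimmer UGT73C6 feature on single arrays, and the change of DFR, were added after they were seen. Alternatives were a fit of only the arrays compared, a fit without CRF6oe arrays, all features tested, no dim features, the mean of a gene's features, quantile normalization, median centring, the replicate number as a block and omission of each array.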

Additional observations from a re-analysis of the deposited data

Results flagged for a closer look

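The H2O2 response differed between CRF6oe and WT for 3 UGT genes by an interaction test in limma. The difference was -2.37 ± 0.46 (SE) for UGT73B3, with group means of 3.89 with H2O2 and 3.59 untreated in CRF6oe and of 5.46 and 2.79 in WT. It was -2.05 ± 0.41 for UGT87A2, with 9.67 with H2O2 and 10.26 untreated in CRF6oe and 10.60 and 9.15 in WT. For UGT73B2 it was -2.04 ± 0.43, with 5.67 and 4.86 in CRF6oe and 7.50 and 4.65 in WT. The CRF6oe arrays stood apart from the others over all genes, and the part of this in the differences was not tested.

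The dimmer feature of UGT73C6, which no count of genes uses, rose with H2O2 in WT by 1.46, while the brighter feature of the same gene was at -0.01. The dimmer feature had a mean of 2.28 over all arrays and the brighter one 5.30. Which of the UGT73C genes gave the dimmer feature's signal was not tested.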

How the results depend on the processing

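Of 43 called results (a gene in a contrast), 21 held under every alternative and omission run and 22 under every omission of 1 array. Fitted on only the arrays compared, which leaves fewer residual degrees of freedom, the count of UGT genes called was 0 for H2O2 in CRF6oe, 4 for H2O2 in WT and 0 for the CRF6oe minus WT difference in H2O2 response. With all features tested, these were 2 for H2O2 in CRF6oe and 0 for the response difference, which was 1 with quantile normalization and 1 with arrays centred on their medians; the cause was not tested. Leaving out 1 array at a time gave 5 to 5 calls for H2O2 in crf6, 0 to 3 in CRF6oe and 4 to 10 in WT. For BA it gave 0 to 0 in crf6, 0 to 1 in CRF6oe and 0 to 0 in WT. For the genotypes it gave 0 to 4 for crf6 and 14 to 20 for CRF6oe, and 0 to 3 for the H2O2 response difference of CRF6oe. UGT76E12 reversed to 0.25 (CRF6oe minus WT, adjusted p = 0.215) when the features of a gene were averaged. The dim filter removed the features of UGT71C1, UGT78D2 and UGT84A4, which have no value under it. The deviations of same-numbered replicates correlated at 0.22 to 0.33 between the 3 WT conditions, at 0.04 to 0.06 in crf6 and at -0.20 to 0.17 in CRF6oe. In WT this is a hint from the data that numbers go with a shared deviation; it did not hold in all genotypes, no label pairs the samples, and the fit without the block was kept. With the replicate number as a block, the H2O2 counts were 7 in crf6, 6 in CRF6oe (UGT76B1 in addition) and 8 in WT, and BA counts stayed at 0. The block gave 3 calls for crf6 (UGT84A4 in addition), 19 for CRF6oe (UGT73B5 in addition) and 3 for its H2O2 response, where UGT73B2 was lost (-2.04, adjusted p = 0.0533) and UGT84A4 added.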
